A study of Mus musculus with 42 samples.

Results

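Of the 29195 ATAC-seq peaks listed for Ts65Dn adult hippocampal neurons, 5215 (17.9%) shared no base with any peak in the euploid list or in the Ts65Dn;Brwd1+/- list, and these Ts65Dn-only peaks are described here. They were chosen on the deposited peak calls themselves, out of 74960 peaks in the 3 genotypes' lists, so their presence in one list, their strength and their absence from the other lists are descriptions and were not tested. An overlap of 1 bp was enough to leave a peak out. The size of the set depended on the lengths of the lists, and it held 1637 peaks, 408 of them among the 5215, when each list was held to its 15521 peaks of lowest q-value, the length of the shortest, and 291 when only the stricter part of the Ts65Dn list by q-value was kept. The rule did not read the annotation and sequence of the peaks, the SMARCA2/4 ChIP-seq peaks around them or the expression of their genes in cultured neurons. Because it selects mostly weak peaks, and promoter and SMARCA2/4 shares vary with strength, these shares are descriptions too and are also given for peaks of like strength.

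ATAC-seq inserts sequencing adapters where DNA is not wrapped around nucleosomes or bound tightly by other proteins, so a peak marks a promoter, an enhancer or another site of open chromatin. The BAF complex is an ATP-dependent remodeler that slides and evicts nucleosomes with SMARCA2 or SMARCA4 as its motor, and in neurons it is needed for dendrite growth and for activity-dependent transcription. BRWD1 is a bromodomain and WD-repeat protein that reads modified histones, and its gene lies in the mouse region homologous to human chromosome 21 that is present in 3 copies in Ts65Dn mice.

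Ts65Dn mice carry an additional small chromosome made of the distal part of chromosome 16 and the proximal part of chromosome 17. Ts65Dn;Brwd1+/- mice, from Ts65Dn females crossed to Brwd1+/- males, keep that extra segment but have lost 1 functional allele of Brwd1, and euploid littermates served as controls. The accessibility libraries (3 per genotype) came from NeuN+ nuclei sorted out of hippocampus of adult male mice, NeuN being a nuclear protein of most mature neurons. The SMARCA2/4 ChIP-seq (4 immunoprecipitated and 4 input libraries per genotype, each from the hippocampus of 1 side in pooled animals) was from unsorted hippocampus of male mice aged 6 to 8 weeks, and the RNA-seq (3 libraries per genotype) was from primary neurons grown from embryonic day 16 forebrain, labelled as pooled from males and females. The cultured neurons were thus of another age and tissue than the nuclei in which the peaks were called. Together these libraries make up the 42 samples of the series.

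There was 1 deposited ATAC peak list and 1 SMARCA2/4 peak list for each genotype, so the replicates had already been pooled, and intervals given with shares cover counting error only. The euploid ATAC list held 15521 peaks and the Ts65Dn;Brwd1+/- list 30244, and the peaks unique to a list made up 1.60% (249) of the euploid list, 17.9% of the Ts65Dn list and 21.0% (6351) of the Ts65Dn;Brwd1+/- list. Some peaks had evenly spaced fold enrichments (17.1%, 20.2% and 17.6% of the euploid, Ts65Dn and Ts65Dn;Brwd1+/- lists, within a tolerance of 0.003). Such spacing arises where the background is the genome-wide one, and it put that background at 8.56, 8.30 and 10.9 pileup units. The background used for the other peaks is not known, and the ATAC read depth itself was not in the files. In the culture RNA-seq, counts assigned to genes came to between 17270070 and 25892802 per library. The libraries labelled as Ts65Dn;Brwd1+/- did not carry less Brwd1 mRNA than Ts65Dn, and they alone expressed the X-inactivation RNA Xist at 1409 to 1982 CPM (the count of a gene scaled to the size of its library), against 0.526 to 1.12 CPM in the other 6 libraries. Sex and genotype therefore cannot be told apart in any culture comparison that uses the libraries labelled as Ts65Dn;Brwd1+/-. The third Ts65Dn culture library was also lower than both others in neuronal genes. Its values are named where they stand apart, and some counts and folds of the neuronal genes are also given without it. Where no such second value is given, the count or fold includes that library.

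The 6 strongest Ts65Dn-only peaks by fold enrichment over the local background are shown because they are the clearest examples of what the rule selects, from an exon of a glutamate transporter gene to intergenic DNA far from any euploid peak. Sequences are from the RefSeq GRCm38.p6 (mm10) genome, plus strand, at most 300 bases around the middle of the peak. Capitals mark matches, on either strand, to the E-box CAGCTG, to the AP-1 motif TGANTCA or to the SP/KLF motif GGGCGG (written CCGCCC on the other strand). The first peak covered chr10:78812753-78813030 and overlapped a coding exon of Slc1a6, a glutamate transporter gene best known from cerebellar Purkinje cells, with 6.34-fold enrichment and q = 1.69e-26. The second, chrX:100767586-100767849 at 6.02-fold, spanned the start of Dlg3, which encodes the synaptic scaffold SAP102, and only the part outside the untranslated exon is printed (chrX:100767586-100767721). The third (chr5:119553464-119553822, 5.81-fold) and the sixth (chr5:119964837-119965145, 5.70-fold) were intergenic, 117 kb from the nearest coding gene Tbx3 and 79.6 kb from Tbx5, which encode T-box transcription factors of limb and heart development. The printed stretches are chr5:119553494-119553793 and chr5:119964842-119965141. The fourth (chr16:37461648-37461920, 5.80-fold) was intergenic, 47.9 kb from Gtf2e1, a subunit gene of general transcription factor TFIIE, and outside the triplicated segment. The fifth (chr1:64885358-64885592, 5.74-fold) was in an intron of Plekhm3.
Slc1a6 exon peak: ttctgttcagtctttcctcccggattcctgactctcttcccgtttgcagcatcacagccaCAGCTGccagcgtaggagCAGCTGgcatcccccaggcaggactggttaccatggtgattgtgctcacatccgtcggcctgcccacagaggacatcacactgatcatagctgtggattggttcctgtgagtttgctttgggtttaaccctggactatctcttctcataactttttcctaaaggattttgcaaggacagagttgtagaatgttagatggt
Dlg3 promoter peak: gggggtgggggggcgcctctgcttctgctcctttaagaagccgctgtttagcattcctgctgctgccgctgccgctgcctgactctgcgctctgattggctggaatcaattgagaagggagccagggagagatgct
Intergenic peak nearest Tbx3: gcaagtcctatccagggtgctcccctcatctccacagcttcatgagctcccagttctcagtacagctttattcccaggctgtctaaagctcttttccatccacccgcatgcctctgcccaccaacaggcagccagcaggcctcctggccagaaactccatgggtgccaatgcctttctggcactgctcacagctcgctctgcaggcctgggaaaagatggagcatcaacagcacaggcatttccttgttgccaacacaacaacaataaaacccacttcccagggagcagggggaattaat
Intergenic peak nearest Gtf2e1: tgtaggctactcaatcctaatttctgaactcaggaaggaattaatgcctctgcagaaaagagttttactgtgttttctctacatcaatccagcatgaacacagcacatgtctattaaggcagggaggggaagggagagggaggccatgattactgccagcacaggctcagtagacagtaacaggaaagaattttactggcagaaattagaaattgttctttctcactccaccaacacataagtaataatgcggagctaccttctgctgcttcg
Plekhm3 intron peak: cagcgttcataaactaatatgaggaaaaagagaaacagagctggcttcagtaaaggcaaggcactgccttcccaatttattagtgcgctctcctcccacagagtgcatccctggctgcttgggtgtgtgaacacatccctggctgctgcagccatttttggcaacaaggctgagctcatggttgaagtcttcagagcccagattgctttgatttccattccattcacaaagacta
Intergenic peak nearest Tbx5: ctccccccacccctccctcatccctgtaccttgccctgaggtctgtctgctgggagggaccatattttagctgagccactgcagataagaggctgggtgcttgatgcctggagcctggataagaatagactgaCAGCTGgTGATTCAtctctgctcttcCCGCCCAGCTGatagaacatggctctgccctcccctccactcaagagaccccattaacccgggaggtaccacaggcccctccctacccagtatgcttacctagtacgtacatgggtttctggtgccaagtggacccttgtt

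The E-box CAGCTG occurred at bases 61 and 79 of the printed Slc1a6 peak and at bases 134 and 165 of the printed peak nearest Tbx5, where an AP-1 match at base 141 and an SP/KLF match at base 160 lay between or across them. The other 4 printed stretches held none of the 12 motifs searched. The nearest euploid ATAC peak to these 6 peaks was between 24.7 kb (Slc1a6) and 562 kb (the peak nearest Tbx3) away. The nearest Ts65Dn;Brwd1+/- ATAC peak was between 20.6 kb (the peak nearest Gtf2e1) and 117 kb (that nearest Tbx3) away. The medians of all Ts65Dn-only peaks were 36.2 and 15.5 kb. The nearest euploid SMARCA2/4 peak that was missing in Ts65Dn lay 348, 1187, 881, 76.7, 33.3 and 602 kb away from the 6 printed peaks in the order above, so that none of the 6 had such a peak within 10 kb. The remaining 4 of the 10 strongest peaks were an intergenic one 31.6 kb from Usp51 (5.70-fold), one between 1 and 3 kb upstream of the non-coding gene Gm14486 (5.61-fold), one near the end of chromosome 19 (5.59-fold) and one 9.18 kb from Neurl1b, which encodes a ubiquitin ligase of the Notch pathway (5.56-fold).

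Ts65Dn-only peaks were mostly weak and narrow. Their fold enrichment had a median of 3.44 (1.88 to 6.34; the middle 90% from 2.72 to 4.42), against 3.78 for the 9406 Ts65Dn peaks shared with Ts65Dn;Brwd1+/- alone and 5.24 for the 14244 found in all 3 lists. Their median width was 238 bp, against 283 and 521 bp. When all Ts65Dn peaks were sorted by enrichment into deciles, the Ts65Dn-only peaks made up 45.2% of the weakest decile, 37.3% and 33.6% of the next ones, and 0 of the 2920 peaks of the strongest. There were 853 Ts65Dn-only peaks (16.4%) above 4-fold and 49 (0.940%) above 5-fold. Even so, each had been called at a q-value of at most 0.000495.

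**Figure D1:**
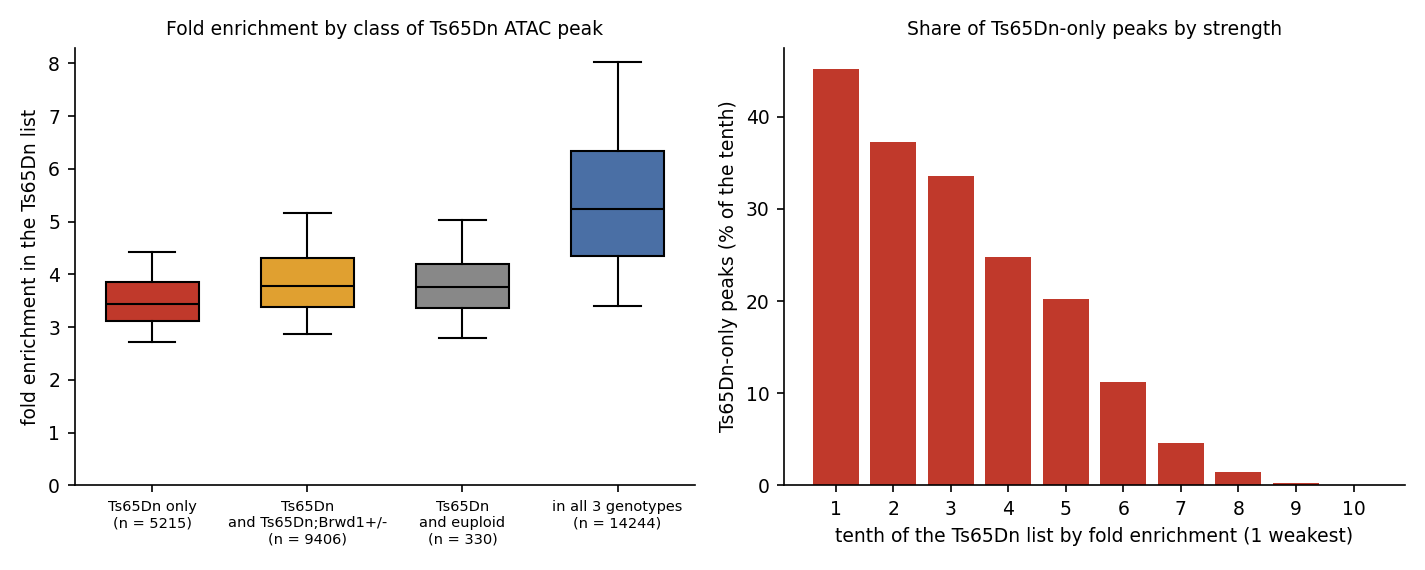
Left, fold enrichment over the local background of Ts65Dn ATAC peaks by the lists in which they occur (boxes, quartiles with the median; whiskers, middle 90%). Right, percent of Ts65Dn peaks that are Ts65Dn-only in each decile of enrichment, falling from 45.2% in the weakest to 0 in the strongest.

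At the edge of the rule, the peak at Rnf145 (2.64-fold) missed a peak of another list by 1 bp and the one at Btg1 (2.58-fold) by 2 bp, and both counted as Ts65Dn-only. Just outside it, a 3 bp overlap removed a peak at Zbtb21 (2.44-fold) and a 4 bp overlap one at Fbxl7 (3.28-fold). Most of the chosen peaks were further off. The nearest euploid ATAC peak was a median of 36.2 kb away, and 7.84% had one within 1 kb and 20.9% within 10 kb. The nearest Ts65Dn;Brwd1+/- ATAC peak was a median of 15.5 kb away, with 14.8% within 1 kb and 38.7% within 10 kb, in a list that was longer. Ts65Dn-only peaks were scattered, with 103 neighbouring pairs within 1 kb of each other and 266 within 10 kb.

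Most Ts65Dn-only peaks lay away from gene starts. By the authors' annotation 1898 (36.4%, Wilson 95% interval 35.1 to 37.7) were in gene bodies, 1597 (30.6%, 29.4 to 31.9) were intergenic and 731 (14%, 13.1 to 15.0) were at proximal promoters, within 250 bp of a transcription start. With the lists cut to equal length the proximal promoter share of the 1637 peaks was 22.4%, and that of peaks in all 3 lists 64.8%. Of the 5215, a further 550 (10.5%) lay between 250 bp and 1 kb of a start and 434 (8.32%) between 1 and 3 kb. Peaks shared by the trisomic genotypes alone were at proximal promoters in 19.0% (18.2 to 19.8) and peaks in all 3 lists in 57.7%, and the gene-body shares were 37.4% and 16.5%. Seen from the Ts65Dn list, 6.77% (6.31 to 7.26) of its proximal promoter peaks were Ts65Dn-only, against 24.2% of its gene-body peaks and 25.2% of its intergenic peaks.

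**Figure D2:**
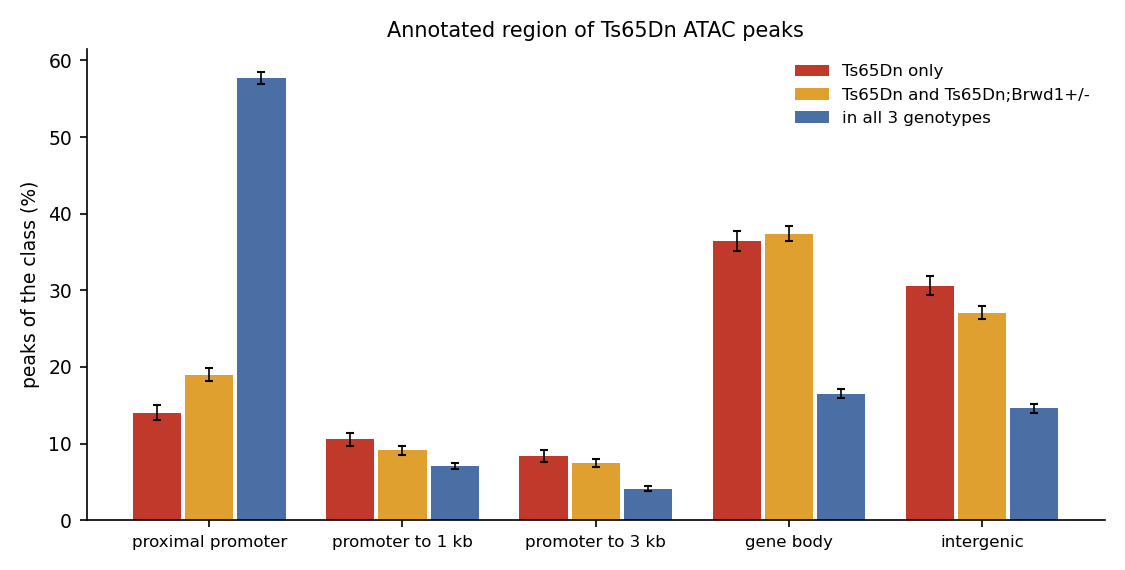
Percent of peaks in each annotated region for Ts65Dn-only peaks, peaks shared by the trisomic genotypes and peaks in all 3 lists, with Wilson 95% intervals as bars. Proximal promoters held 14% of the Ts65Dn-only peaks and 57.7% of the peaks in all 3 lists.

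Among peaks of like strength the promoter share of Ts65Dn-only peaks was again below that of the 2 larger classes. Among peaks of 3.5 to 4-fold enrichment, bands that were set with the data in view, proximal promoters held 10.8% of Ts65Dn-only peaks, 16.1% of peaks shared by the trisomic genotypes and 36.0% of peaks in all 3 lists, and between 4 and 5-fold the shares were 12.3%, 17.6% and 42.3%. The small class of 330 peaks shared with euploid alone stood at 17.2% (17 of 99) and 11.2% (11 of 98) in these bands, the second value below that of the Ts65Dn-only peaks. Intergenic shares ran the other way, at 37.2%, 29.8% and 18.7% between 3.5 and 4-fold. Of the 1898 gene-body peaks, 12.3% overlapped an exon, against 11.7% and 12.4% of the gene-body peaks of the other classes.

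Ts65Dn-only peaks were spread over the genome. They made up between 15.9% (chromosome 16) and 20.9% (chromosome X, 100 of 479) of the Ts65Dn peaks of a chromosome, leaving aside chromosome Y with 2 peaks in all. The segment that is triplicated in Ts65Dn, placed here at chr16:84717576-98207768 and chr17:1-8986648, held 54 Ts65Dn-only peaks among its 390 Ts65Dn peaks (13.8%, 10.8 to 17.6), and the rest of the genome 17.9% (17.5 to 18.4). Peaks shared by the trisomic genotypes alone made up 48.2% of the peaks in the segment and 32.0% elsewhere. The third copy of the segment adds DNA to both trisomic genotypes, and its part in these shares was not tested.

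Ts65Dn-only peaks were less rich in GC and in CpG than peaks in all 3 lists, and so were those shared by the trisomic genotypes. Their median GC content was 51.9%, against 60.6% for peaks in all 3 lists, and the median ratio of observed to expected CpG was 0.299 against 0.700. Peaks shared by the trisomic genotypes alone were close to the Ts65Dn-only ones, at 52.4% and 0.312. Annotated repeats covered a mean of 8.78% of a Ts65Dn-only peak, 8.21% of a peak shared by the trisomic genotypes and 26.4% of windows placed 10 kb to the right. The 731 proximal promoter members had a median GC content of 64.6%.

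Short motifs were counted on both strands within 100 bases on either side of each peak's middle. E-boxes are the sites of basic helix-loop-helix factors such as the NEUROD and NEUROG proteins of neurons. The E-box CAGATG occurred in 28.9% (27.7 to 30.1) of Ts65Dn-only peaks, against 23.4% of all Ts65Dn peaks and 15.5% of windows 10 kb to the right. Among peaks in gene bodies and between genes the share was 34.1% (32.5 to 35.7) in Ts65Dn-only peaks, 38.1% in those shared by the trisomic genotypes and 36.4% in those of all 3 lists, with 15.1% in the windows beside the Ts65Dn-only ones. At proximal promoters it was 11.8%, against 15.5% in the windows beside them and 5.55% at promoter peaks of all 3 lists. The palindromic E-box CAGCTG occurred in 19.6% of Ts65Dn-only peaks, against 16.4% of all Ts65Dn peaks and 8.95% of the windows to the right.

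Other motifs differed in their order between the classes. The AP-1 site TGANTCA, bound by FOS and JUN proteins after neuronal activity, was in 10.6% (9.60 to 11.6) of distal Ts65Dn-only peaks, 14.9% (14.1 to 15.9) of distal peaks shared by the trisomic genotypes and 13.9% of distal peaks in all 3 lists, against 5.57% of the windows to the right. The RFX motif GTTGCCATG was in 1.15%, 1.57% and 2.65% of distal peaks in the same order, and the MEF2 motif CTATTTNTA in 2.38%, 1.68% and 1.45%, with 1.00% beside the Ts65Dn-only peaks. At proximal promoters the ETS motif CCGGAAG, a common element of housekeeping promoters, was in 4.79% of Ts65Dn-only peaks, 10.9% of those shared by the trisomic genotypes and 14.2% of those in all 3 lists. The SP/KLF motif GGGCGG, which can overlap the EGR motif GCGNGGGCG, was in 49.4%, 52.0% and 61.4% of these promoter peaks. The core CAGNGGGC of the CTCF site, where the insulator protein CTCF binds, was in 7.24% of Ts65Dn-only peaks and 7.28% of all Ts65Dn peaks. In the windows to the right it was in 3.28%. The SOX motif CATTGTT was in 2.29%, 1.84% and 3.76% in the same order. The median GC content of the stretches searched was 52.2% in Ts65Dn-only peaks and 45.3% in the windows to the right. A match is a string of letters and was not tested as a binding site.

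The SMARCA2/4 lists were of very unequal length. Euploid hippocampus had 22667 SMARCA2/4 peaks, Ts65Dn 1290 and Ts65Dn;Brwd1+/- 1873, and 22062 of the euploid peaks had no overlap with a Ts65Dn peak. These are called lost here. Because they are nearly all euploid peaks, closeness to a lost peak is close to the same as closeness to any SMARCA2/4 site of euploid hippocampus. In the euploid list 87.8% of peaks had a q-value under 0.05, in the Ts65Dn list 31.8%.

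Ts65Dn-only ATAC peaks were near lost SMARCA2/4 peaks less often than the 2 larger classes of Ts65Dn peaks. Of the 5215, 613 (11.8%) overlapped a lost peak, 21.7% lay within 1 kb of one, 1743 (33.4%, 32.2 to 34.7) within 10 kb and 59.6% within 50 kb. Within 10 kb the share was 39.8% (38.8 to 40.8) for peaks shared by the trisomic genotypes, 54.6% (53.7 to 55.4) for peaks in all 3 lists and 48.5% (47.9 to 49.1) for all other Ts65Dn peaks together. With the lists cut to equal length the share of the 1637 Ts65Dn-only peaks was 43.1%, and it was not taken for the other classes. The order of the classes is therefore known for the full lists only. The 330 peaks shared with euploid alone were at 33.9% (29.0 to 39.2) within 10 kb in the full lists, and within 50 kb they were lower than the Ts65Dn-only peaks at 52.1% (46.7 to 57.5).

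Among these 3 larger classes the order was the same in each kind of region. At proximal promoters 45.3% (41.7 to 48.9) of Ts65Dn-only peaks were within 10 kb of a lost SMARCA2/4 peak, 51.7% of those shared by the trisomic genotypes and 56.3% of those in all 3 lists. In gene bodies the shares were 30.7%, 36.2% and 50.5%, and between genes 21.4%, 27.4% and 42.0%. In bands of equal ATAC enrichment, which were chosen after the data were seen, the shares were 34.5%, 49.6% and 70.4% between 3 and 3.5-fold, 22.4%, 35.4% and 61.7% between 3.5 and 4-fold, and 18.1%, 31.8% and 55.6% between 4 and 5-fold. The peaks shared with euploid alone, with under 100 peaks a band, were at 33.7%, 30.3% and 27.6%. In each of the 3, then, stronger ATAC peaks in these bands were less often near a lost SMARCA2/4 peak.

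**Figure D3:**
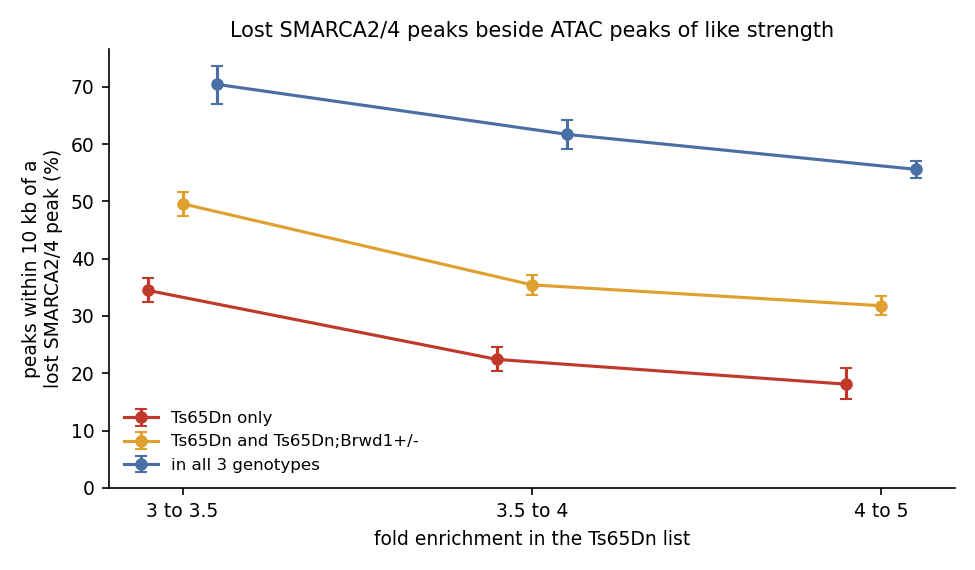
Percent of Ts65Dn ATAC peaks within 10 kb of a euploid SMARCA2/4 peak that was missing in Ts65Dn, by class and by band of ATAC fold enrichment, with Wilson 95% intervals. Of the classes drawn Ts65Dn-only peaks had the lowest share in all 3 bands, for example 18.1% against 55.6% of peaks in all 3 lists between 4 and 5-fold.

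The 613 Ts65Dn-only peaks that overlapped a lost SMARCA2/4 peak had a median enrichment of 3.19 and GC content of 57.0%, against 3.5 and 51.3% for the rest. Seen from the SMARCA2/4 list, 3.07% (2.85 to 3.30) of lost peaks and 3.8% (2.55 to 5.64) of the 605 kept peaks overlapped a Ts65Dn-only ATAC peak, so that the intervals overlapped. Kept SMARCA2/4 peaks lay within 10 kb of 2.03% of Ts65Dn-only peaks. The 622 SMARCA2/4 peaks missing in Ts65Dn and listed again in Ts65Dn;Brwd1+/- lay within 10 kb of 2.38% (2.00 to 2.83) of Ts65Dn-only peaks and 2.62% of peaks shared by the trisomic genotypes.

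The authors' annotation put 3613 of the 5215 peaks on 2910 genes, and 1602 peaks (30.7%) on none. There was 1 Ts65Dn-only peak on 2411 genes, and 135 genes had 3 or more. A proximal promoter peak fell on 712 genes, of which 470 had no euploid ATAC peak anywhere on the gene, and 320 had such a promoter peak within 10 kb of a lost SMARCA2/4 peak. Genes with a Ts65Dn-only peak were long, with a median of 65.3 kb over 2381 coding genes, against 25.7 kb for coding genes with other Ts65Dn peaks only and 17.4 kb for all coding genes.

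The genes with the most Ts65Dn-only peaks were all long. Asic2, encoding an acid-sensing ion channel, had 7, from chr11:80895925 to chr11:81851393, 6 of them in the gene body. Gse1, encoding a coiled-coil protein of chromatin-modifying complexes, also had 7, and there 3 overlapped a lost SMARCA2/4 peak and 2 more were within 0.1 kb of one. Nav2 (a guidance and cytoskeleton protein) and Syt1 (the calcium sensor of synaptic vesicle release) had 6 each, and the annotated locus Gm20388, which spans other genes, 6. Cdh4 (R-cadherin) was 1 of 11 genes tied at 5, among them Shank2, and is taken as the sixth for its peak of highest enrichment in that tie.

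Among the gene lists, 19 of 30 voltage-gated channel genes, 17 of 30 synaptic adhesion genes, 13 of 24 glutamate receptor genes, 15 of 30 synaptic scaffold and vesicle genes and 14 of 30 axon guidance genes had a Ts65Dn-only peak, against 10.8% of all coding genes. GABA receptor genes had 4 of 14, BAF subunit genes 6 of 27 and immediate early genes 1 of 18, which was Junb. Of the marker lists, 4 of 12 astrocyte, 3 of 12 endothelial and mural, 2 of 12 oligodendrocyte, 0 of 12 microglial, 4 of 12 excitatory neuron and 3 of 12 GABAergic neuron markers had one. Many of these neuronal genes are long, and the part of gene length in these counts was not tested. Per Mb of gene there were 3.87 Ts65Dn-only peaks on the channel list and 2.80 on the scaffold and vesicle list. The glutamate receptor list had 2.46, the GABA receptor list 2.38, the guidance list 1.94 and the adhesion list 1.34. All coding genes together had 2.84. Counted per peak, Ts65Dn-only peaks made up 15.2 to 22.1% of the Ts65Dn peaks on each of the receptor, channel, adhesion, guidance and scaffold lists and 15.1% of those on all coding genes. On the BAF subunit list the share was 16.4% (11 of 67). On the remaining lists the peaks were few, and the share ran from 0 of 4 for microglial and 1 of 28 for immediate early genes to 3 of 6 for GABAergic and 4 of 7 for endothelial and mural markers.

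Whether the genes near these peaks were expressed differently was examined in the cultured embryonic neurons, where 2280 of the 2910 genes passed the filter on low counts and 166 had 0 counts in all libraries. In bulk RNA, fewer cells of a type and less RNA per cell cannot be told apart. Between Ts65Dn and euploid cultures 665 of the 2280 genes (29.2%) were higher and 770 (33.8%) lower at an adjusted p under 0.05 (edgeR, quasi-likelihood), against 25.6% higher and 21.1% lower among all 17173 genes tested. Their median log2 fold change was -0.04, and that of all genes 0.04. Genes with Ts65Dn-only peaks were thus called in both directions more often than all genes, and more so in the lower direction.

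The split between higher and lower genes varied with where the peak lay and with the number of peaks, as counts without a test. Of 612 tested genes with a Ts65Dn-only peak at the proximal promoter, 197 (32.2%) were higher in Ts65Dn and 181 (29.6%) lower, and where the gene had no euploid ATAC peak at all, 138 of 376 (36.7%) were higher and 99 (26.3%) lower. Of 1034 genes with such peaks in the gene body and none at a promoter, 294 were higher and 371 (35.9%) lower. The 130 tested genes with 3 or more Ts65Dn-only peaks were mostly lower, 77 (59.2%) against 23 (17.7%) higher, with a median log2 fold change of -0.43. Without the third Ts65Dn library 72 of these 130 were lower, 20 higher and the median was -0.34. Genes with a peak within 10 kb of a lost SMARCA2/4 peak were lower in 396 of 1023 cases (38.7%) and higher in 277 (27.1%), and those with no such peak nearby were lower in 374 of 1257 (29.8%) and higher in 388 (30.9%). The median level was 5.71 log2 CPM in the former and 4.68 in the latter. It was 6.12 in genes with 3 or more Ts65Dn-only peaks, 5.20 in all genes with such a peak and 4.27 over all genes tested. The part of expression level in these shares was not tested.

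Genes that carried other Ts65Dn ATAC peaks, and none of the Ts65Dn-only ones, were higher in 23.3% and lower in 22.9% of 9014 cases. For 2947 genes with a peak gained in both trisomic genotypes the shares were 25.4% and 27.6%, and for 5879 genes with no Ts65Dn peak 27.7% and 13.5%. Genes above 100 kb were lower more often. In bands of gene length set after the data were seen, genes with Ts65Dn-only peaks were lower in 28.9% of cases below 20 kb, 27.1% from 20 to 50 kb, 29.3% from 50 to 100 kb, 33.6% from 100 to 200 kb, 44.8% from 200 to 500 kb and 59.1% above 500 kb. Genes with other Ts65Dn peaks were lower in 19.2%, 21.9%, 25.1%, 31.8%, 36.8% and 65.6% in the same bands, the last with 64 genes. The gap between these gene groups was therefore widest below 20 kb and changed sign above 500 kb.

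**Figure D4:**
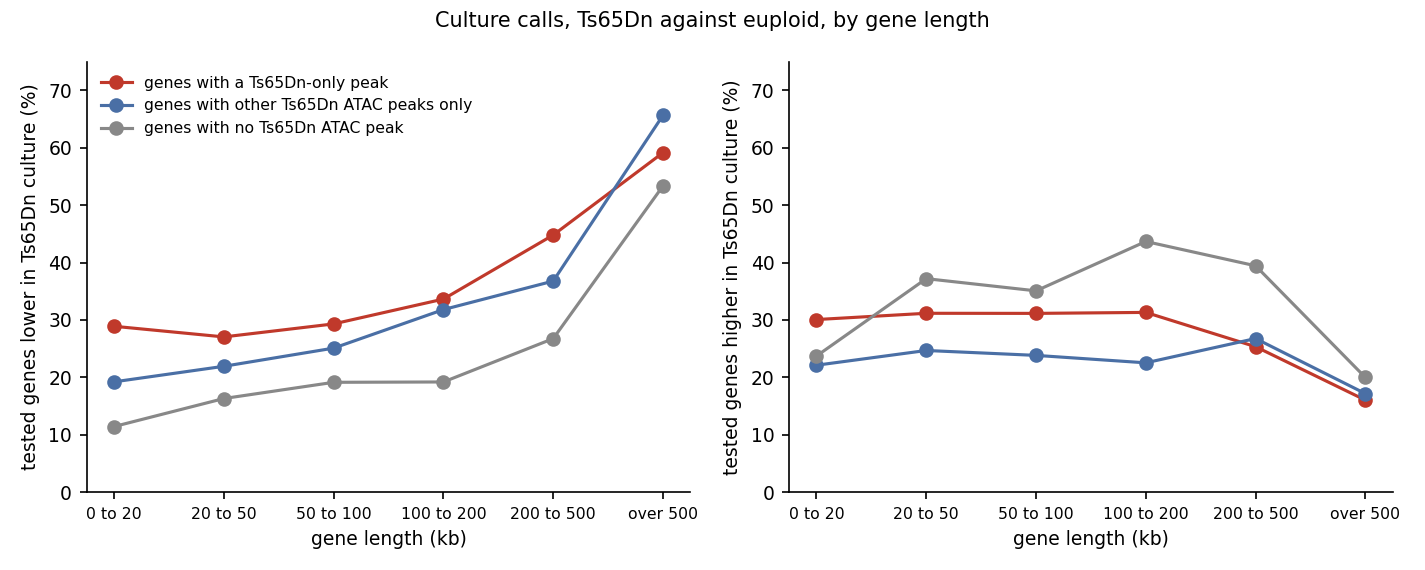
Percent of tested genes lower (left) and higher (right) in Ts65Dn than in euploid cultures (edgeR, adjusted p under 0.05) by band of gene length in kb, for genes with a Ts65Dn-only ATAC peak, with other Ts65Dn peaks only and with none. In the lower direction the first of these rises from 28.9% below 20 kb to 59.1% above 500 kb.

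Of the genes at the strongest peaks, Slc1a6 was expressed at 8.30, 9.83 and 7.47 CPM in euploid, 5.06, 5.29 and 3.93 in Ts65Dn and 11.8, 9.02 and 9.26 in the libraries labelled as Ts65Dn;Brwd1+/-. Every Ts65Dn library was below every other library. Against euploid, Ts65Dn had a log2 fold change of -0.84 (SE 0.16, edgeR adjusted p = 0.00250). Dlg3 was at 141, 138 and 117 CPM in euploid and 72.0, 65.0 and 33.9 in Ts65Dn, again without overlap, a log2 fold change of -1.21 (SE 0.23, edgeR adjusted p = 0.00218, and -0.94 without the third Ts65Dn library). A promoter peak that was listed only in adult Ts65Dn neurons thus lay on a gene with less mRNA in the Ts65Dn cultures. Plekhm3, at 27, 27.9 and 28.5 CPM against 24.3, 22.2 and 24.5, differed little (log2 fold change -0.23, SE 0.07, edgeR adjusted p = 0.0264) and lost its call under 3 alternative settings. Gm14486 had between 0 and 3 counts per library and was not tested.

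**Figure D5:**
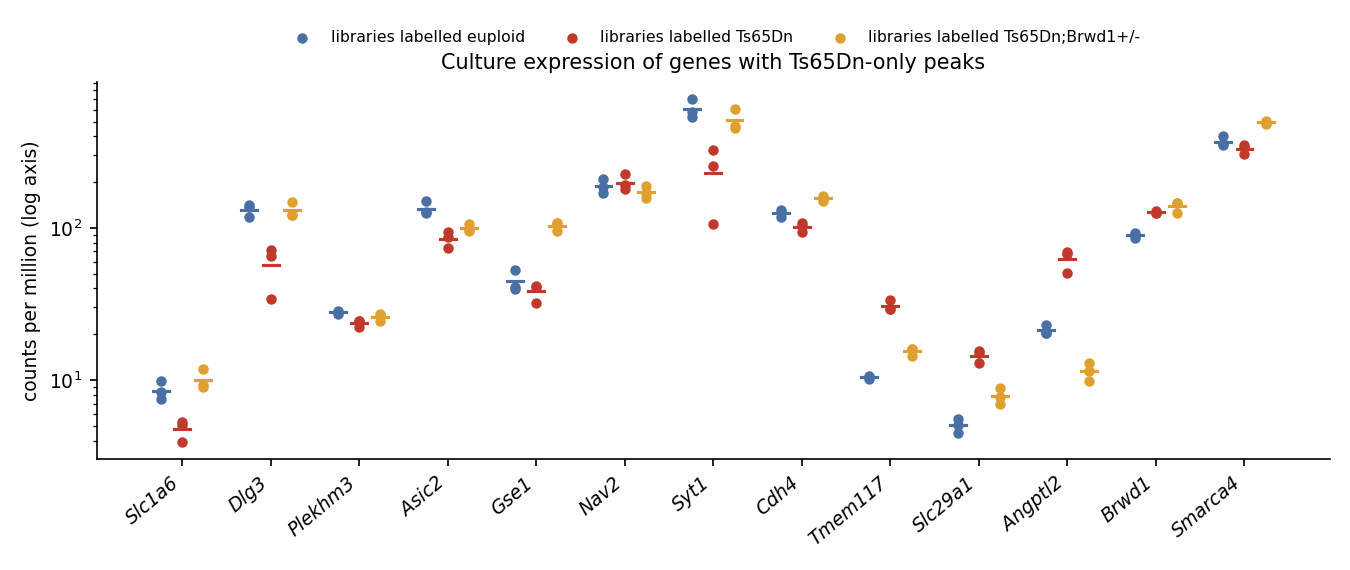
Expression of 13 genes in each culture library (CPM, log axis), 3 points per genotype. Slc1a6, Dlg3, Asic2, Syt1 and Cdh4 sit lower in all 3 Ts65Dn libraries than in all 3 euploid libraries, Tmem117, Slc29a1, Angptl2 and Brwd1 higher, and Gse1 and Nav2 overlap. In Smarca4 the highest Ts65Dn library (350.1 CPM) is just below the lowest euploid one (352 CPM).

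Of the genes with the most Ts65Dn-only peaks, 3 were lower in Ts65Dn cultures and 2 passed no test. Asic2 was at 128, 149 and 125 CPM in euploid and 86.6, 93.8 and 73.9 in Ts65Dn, without overlap (log2 fold change -0.66, SE 0.10, edgeR adjusted p = 0.000827). Syt1 was at 703, 575 and 532 CPM in euploid and 324, 256 and 105 in Ts65Dn, the last being the library that stood apart (log2 fold change -1.40, SE 0.33, edgeR adjusted p = 0.00635, and -1.05 without that library). Per kilobase of exon Syt1 was the more abundant of the pair, with a mean of 72.3 against 31.4 RPKM for Asic2 in euploid cultures. Cdh4 was at 118, 127 and 131 CPM in euploid and 94.4, 107 and 102 in Ts65Dn (log2 fold change -0.31, SE 0.08, edgeR adjusted p = 0.00746). Gse1, at 39.6, 53.0 and 40.9 CPM against 32.2, 41.1 and 41.3, overlapped between these genotypes (edgeR adjusted p = 0.197), and Nav2 too (log2 fold change 0.08, edgeR adjusted p = 0.620).

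Of the genes with a Ts65Dn-only promoter peak within 10 kb of a lost SMARCA2/4 peak, the 6 with the smallest p were all higher in Ts65Dn cultures. Among all 285 tested genes of this kind 88 (30.9%) were higher and 94 (33.0%) lower, against 25.6% and 21.1% of all genes tested. Without the third Ts65Dn library 75 were higher and 87 lower. The 6 named here thus stand for 1 direction only. Tmem117, a membrane protein gene with such peaks at chr15:94628927-94629175 and chr15:94629324-94629523, rose from 10.5, 10.2 and 10.6 CPM to 29.2, 29.2 and 33.8 (log2 fold change 1.56, SE 0.09, edgeR adjusted p = 1.81e-06). Angptl2, which encodes a secreted angiopoietin-like protein and has its peak at chr2:33215778-33215977, rose from 20.3, 22.9 and 20.4 to 50.1, 69.7 and 67.8 CPM (log2 fold change 1.56, SE 0.14, edgeR adjusted p = 2.69e-05). In neither gene did the genotypes overlap. The nucleoside transporter gene Slc29a1 rose by 1.52 on the log2 scale, the lysosomal carboxypeptidase gene Ctsa by 0.81 and the secreted C1q-related gene C1qtnf6 by 1.25, all without overlap. Il7, encoding the lymphocyte cytokine interleukin 7, rested on few reads, with 7 counts in the 3 euploid libraries together, 202 in Ts65Dn and 10 in the libraries labelled as Ts65Dn;Brwd1+/-.

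The 8 highest called fold changes among genes with Ts65Dn-only peaks were those of Il7, Sim2, Tll2, Aox3, Meltf, Kdr, BC067074 and Adamts14. Kdr, the receptor through which VEGF acts on endothelial cells, had its peak in the gene body at chr5:75954791-75955060 with 4.73-fold enrichment. It was at 78.9, 82.7 and 87.6 CPM in euploid, 651, 757 and 858 in Ts65Dn and 85.3, 127 and 123 in the libraries labelled as Ts65Dn;Brwd1+/- (log2 fold change 3.18 in Ts65Dn, SE 0.16, edgeR adjusted p = 1.05e-06). Kdr made up most of the summed endothelial and mural marker level in Ts65Dn. That sum was 209 to 232 CPM in euploid and 865 to 1128 CPM in Ts65Dn. Pecam1, a defining endothelial marker, was at 0.971, 0.877 and 0.455 CPM in euploid and 0.572, 0.494 and 0.265 in Ts65Dn. Sim2, a transcription factor gene inside the triplicated segment with an exon peak at chr16:94125569-94125862, had 0 counts in all 3 euploid libraries and 30, 23 and 41 in Ts65Dn, at least 30.4-fold more than a floor of 3 counts over the euploid group. Its peak was 0.059 kb from a Ts65Dn;Brwd1+/- peak.

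Tll2 and Adamts14, genes of secreted metalloproteases, had log2 fold changes of 4.99 and 3.02, the aldehyde oxidase gene Aox3 3.35, the iron-binding surface protein gene Meltf 3.22 and BC067074 3.05. All but Kdr among these were low in euploid cultures, with Aox3 at 2, 4 and 1 counts against 29, 24 and 24. Tll2 had 2, 6 and 6 counts in euploid and 136, 157 and 174 in Ts65Dn. The fold sizes and ranks of Il7, Sim2, Tll2 and Aox3 thus rest on few or 0 euploid counts and are uncertain.

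The 8 lowest called fold changes were those of Gm45881, Gm2824, Pdyn, Npy2r, Mgat4c, Syt13, Mroh5 and 6530403H02Rik. Pdyn, the precursor of the dynorphin opioid peptides, had an exon-overlapping peak at chr2:129686955-129687211. It fell from 8.06, 7.50 and 8.42 CPM in euploid to 1.71, 1.33 and 1.32 in Ts65Dn, and was at 2.27, 2.78 and 2.65 in the libraries labelled as Ts65Dn;Brwd1+/- (log2 fold change -2.44 in Ts65Dn, SE 0.15, edgeR adjusted p = 2.53e-06). All 3 genotypes were apart. Syt13, a relative of Syt1, fell from 23.8, 25.1 and 18.9 to 6.29, 4.54 and 3.62 CPM (log2 fold change -2.22, SE 0.22, edgeR adjusted p = 4.93e-05). Npy2r, a neuropeptide Y receptor gene, had a log2 fold change of -2.29 and Mgat4c, a glycosyltransferase gene, -2.24, while Gm45881 (-3.16), Gm2824 (-2.51), Mroh5 (-2.08) and 6530403H02Rik (-2.02) were all at under 5 CPM in each library.

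The synaptic gene lists were lower as whole lists in the Ts65Dn cultures, and their genes with Ts65Dn-only peaks were lower with them. Of all genes tested 25.6% were higher and 21.1% lower. Of 30 voltage-gated channel genes 27 were lower and 0 higher with a median log2 fold change of -1.15, and of the 19 with a Ts65Dn-only peak 16 were lower. Of 28 tested scaffold and vesicle genes 27 were lower and 1 higher (median -1.15), and all 15 with a Ts65Dn-only peak were lower. Without the third Ts65Dn library 13 of these 15 were lower. Of 29 synaptic adhesion genes 25 were lower and 0 higher (median -0.95), including 15 of the 17 with a peak. All 14 GABA receptor genes were lower (median -1.21), including the 4 with a peak, and of 24 glutamate receptor genes 17 were lower and 1 higher (median -1.17), with 8 and 1 among the 13 with a peak. Without the third Ts65Dn library the medians of these lists in the same order were -0.86, -0.83, -0.74, -0.86 and -0.92. Genes of the lists without a Ts65Dn-only peak were not set apart.

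Single members showed the pattern library by library. Grin2b, an NMDA receptor subunit gene, was at 461, 399 and 301 CPM in euploid and 207, 185 and 66.2 in Ts65Dn (log2 fold change -1.34, SE 0.36, edgeR adjusted p = 0.0127, and -0.98 without the third Ts65Dn library). Nrxn3, a presynaptic adhesion gene of the neurexin family, was at 154, 143 and 154 CPM and 91.3, 88.4 and 71.3 (log2 fold change -0.85, SE 0.09, edgeR adjusted p = 0.000119). The groups overlapped in neither. Of other members, Gabbr2 (a GABA-B receptor subunit) had a log2 fold change of -1.33, Cacna1e (a calcium channel) -1.12, Shank2 (a postsynaptic scaffold) -0.92 and Lsamp (a limbic adhesion protein) -1.38, while the calcium channel gene Cacna1d was at -0.04 (edgeR adjusted p = 0.753). Without the third Ts65Dn library Gabbr2 was at -0.96, Cacna1e at -0.83, Shank2 at -0.75 and Lsamp at -1.09.

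Of 30 axon guidance genes 7 were higher and 15 lower, with 4 and 6 among the 14 with a Ts65Dn-only peak. The share of higher genes was near the 25.6% of all genes tested and that of lower genes above their 21.1%. Without the third Ts65Dn library 6 guidance genes were higher and 14 lower, with 3 and 5 among those with a Ts65Dn-only peak. Sema5a (-1.11) and Sema6d (0.68 on the log2 scale), both semaphorin genes, went opposite ways. Of immediate early genes 8 of 18 were higher and 3 lower, beside the same shares of all genes. Junb, the only one with a Ts65Dn-only peak, was at 18.6, 24.9 and 19.3 CPM in euploid and 30.4, 34.8 and 36.0 in Ts65Dn (log2 fold change 0.69, SE 0.13, edgeR adjusted p = 0.00212).

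Markers of neurons moved with these groups. Of excitatory neuron markers 11 of 12 were lower and 0 higher, and of GABAergic markers 11 of 12 were lower and 1 higher. Among all genes tested 21.1% were lower and 25.6% higher. The summed excitatory marker level was 1425 to 1858 CPM in euploid, 432 to 982 in Ts65Dn and 1301 to 1821 in the libraries labelled as Ts65Dn;Brwd1+/-, the value of 432 being the third Ts65Dn library, and the summed GABAergic level was 695 to 759, 167 to 291 and 1106 to 1199 CPM. The part of neuron number or maturity in the fall of the synaptic genes was not tested. Without the third Ts65Dn library 27 voltage-gated channel, 25 scaffold and vesicle, 25 adhesion, 13 GABA receptor and 17 glutamate receptor genes remained counted as lower, and 12 of 12 excitatory markers.

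Neuronal markers with a Ts65Dn-only peak were lower with their lists. Dlx1, a transcription factor gene of interneuron development with a promoter peak at chr2:71529543-71529742, was at 68.1, 64.1 and 75.8 CPM in euploid, 25.4, 19.9 and 19.9 in Ts65Dn and 198, 187 and 230.0 in the libraries labelled as Ts65Dn;Brwd1+/- (log2 fold change -1.67 in Ts65Dn, SE 0.12, edgeR adjusted p = 8.41e-06). All 3 genotypes were apart. Npy (neuropeptide Y, -0.93), Reln (reelin, -1.52), Tbr1 (a cortical transcription factor, -1.44) and Rbfox3 (NeuN itself, -1.11) fell too on the log2 scale. Without the third Ts65Dn library Npy was at -0.80, Reln at -1.27, Tbr1 at -1.07 and Rbfox3 at -0.83. Of glial markers, 5 of 11 astrocyte and 4 of 10 oligodendrocyte genes were higher and 2 and 1 lower, against 25.6% higher and 21.1% lower of all genes tested. Of 7 tested microglial genes 1 was higher and 2 lower, and of 6 endothelial and mural genes 3 were higher and 0 lower, although Pecam1 passed as lower with the replicate block (log2 fold change -0.78, edgeR adjusted p = 0.0454). Without the third Ts65Dn library 3 astrocyte genes were higher and 1 microglial gene was lower. Summed astrocyte markers were at 3746 to 4590 CPM in euploid and 4323 to 4989 in Ts65Dn cultures, which overlap. Summed oligodendrocyte lineage markers were at 363 to 416 CPM in euploid and 613 to 715 in Ts65Dn, and microglial markers at 27.1 to 37.8 and 44.1 to 54.0 CPM, neither with overlap. The part of these cells in the fall of the neuronal genes was not tested.

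Brwd1 itself held a Ts65Dn-only peak at chr16:96034584-96034783, with its middle 947 bp downstream of a transcription start and overlapping an exon, with 3.04-fold enrichment. Its mRNA was at 93.2, 85.9 and 89.2 CPM in euploid, 129, 126 and 125 in Ts65Dn and 145, 146 and 124 in the libraries labelled as Ts65Dn;Brwd1+/-. Ts65Dn was above euploid in every library (log2 fold change 0.50, SE 0.08, edgeR adjusted p = 0.000787). The libraries labelled as Ts65Dn;Brwd1+/- overlapped Ts65Dn (log2 fold change 0.13, SE 0.08, edgeR adjusted p = 0.186). Brwd1 was the only one of the 3 BRWD family genes with such a peak and the only one called in Ts65Dn against euploid cultures.

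The motor subunits of BAF differed from each other. Smarca4 held a Ts65Dn-only peak in its gene body, at chr9:21683954-21684432, that overlapped a lost SMARCA2/4 peak, whereas Smarca2 had no Ts65Dn-only peak and 2 euploid, 3 Ts65Dn and 3 Ts65Dn;Brwd1+/- ATAC peaks. Smarca4 was at 352, 399.9 and 357 CPM in euploid, 304, 350.1 and 338 in Ts65Dn and 506, 481 and 492 in the libraries labelled as Ts65Dn;Brwd1+/-. Every Ts65Dn library was below every euploid one by a narrow gap, and the log2 fold change of -0.16 did not pass the test (SE 0.09, edgeR adjusted p = 0.153), and that of Smarca2 was -0.03 (edgeR adjusted p = 0.722). Of the 27 BAF subunit genes 8 were higher and 8 lower, beside the 25.6% and 21.1% of all genes tested, and without the third Ts65Dn library 4 were higher and 7 lower. Among the 6 with a Ts65Dn-only peak Arid1b was higher (log2 fold change 0.40), a call lost without euploid replicate 3 (edgeR adjusted p = 0.0736). Its Ts65Dn-only peaks lie inside the triplicated segment, and the part of the third copy in its level was not tested. Dpf3 (-0.43) and Dpf1 were lower.

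In the libraries labelled as Ts65Dn;Brwd1+/- against Ts65Dn, 870 of the 2280 genes with Ts65Dn-only peaks (38.2%) were higher and 742 (32.5%) lower (edgeR, adjusted p under 0.05), against 27.6% and 30.5% of all genes tested. The median log2 fold change was 0.07, and 0.00 over all genes. This contrast uses the same Ts65Dn libraries as the one above, so the opposite directions in them are not separate evidence, and it carries the difference in sex. Of the 130 genes with 3 or more Ts65Dn-only peaks 82 (63.1%) were higher and 24 lower. Gse1 was at 107, 94.9 and 108 CPM here, above both other genotypes (log2 fold change 1.44 against Ts65Dn, SE 0.13, edgeR adjusted p = 1.35e-05), and Dlg3 was at 148, 122 and 122 CPM (1.20, SE 0.23, edgeR adjusted p = 0.00135). Asic2, at 106, 95.9 and 97.0 CPM, lay above all Ts65Dn libraries and did not pass the test (log2 fold change 0.23, SE 0.10, edgeR adjusted p = 0.0777). It passed when Ts65Dn replicate 2 was left out (edgeR adjusted p = 0.0416).

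Against euploid, the libraries labelled as Ts65Dn;Brwd1+/- differed less. Of the 2280 genes 330 (14.5%) were higher and 426 (18.7%) lower (edgeR, adjusted p under 0.05), against 14% and 15.2% of all genes tested, so the share of higher genes was near that of all genes. Of the 130 genes with 3 or more Ts65Dn-only peaks 20 were higher and 18 lower. Asic2 was lower than in euploid (log2 fold change -0.43, edgeR adjusted p = 0.0110), Dlg3 was at -0.02 (edgeR adjusted p = 0.971) and Pdyn at -1.64 (edgeR adjusted p = 3.03e-05).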

How the data were processed

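The authors deposited 1 ATAC-seq and 1 SMARCA2/4 ChIP-seq peak list per genotype, with a fold enrichment, a q-value and an annotated region for each peak. Per the methods of the study, reads were aligned to mm10 with HISAT2, duplicates were removed, peaks were called with MACS2 and regions were assigned with diffReps. How the replicates were merged is not given in the sources used here. The authors also deposited raw counts per gene for each culture library, which end in 5 summary lines of unassigned reads (37.4 to 40.0% of the counts), left out here. The strand used in counting is not given in the sources used here, so antisense and overlapping genes may share reads.

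Peaks were classed by an overlap of 1 bp, and nearness was measured between edges. Shares carry Wilson 95% intervals. Of 28069 transcripts in the lists, 95.1% had the same position in the mm10 annotation used. Counts were tested with edgeR 4.0.16 (R 4.3.3; TMM, filterByExpr, glmQLFTest, all 9 libraries, genotype only, no block), with Benjamini-Hochberg adjustment over 17173 genes and a threshold of 0.05. The scripts were tested on simulated data with 200 changed genes. DESeq2 1.42.0 and the other alternatives are in the closing section. Nothing in the labels ties the samples of a group to separate litters, so p-values measure the spread between these libraries. Same-numbered euploid and Ts65Dn libraries deviated together from their group means (r = 0.129, 0.206 and 0.263). From the data, these numbers were therefore taken as pairs in an alternative fit, and not in the main one. The other genotype pairs did not pass this check, although the alternative fit over all 9 libraries pairs them too.

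The members and gene lists were chosen with earlier results of these data known. Genes were named by rule: those at the 10 strongest Ts65Dn-only peaks, the 6 with the most such peaks, the 6 with the smallest p among genes with a promoter peak near a lost SMARCA2/4 peak, the 8 highest and 8 lowest called fold changes without overlap between genotypes, Brwd1, Smarca2 and Smarca4, and up to 4 members of each gene list. Depth limits genes with few counts, and the ATAC and ChIP depths are unknown.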

Additional observations from a re-analysis of the deposited data

How the results depend on the processing

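The set of Ts65Dn-only peaks depended on how the lists were cut. It held 291 peaks when only the stricter part of the Ts65Dn list by q-value was kept and 1637 when the 3 lists were cut to the same length, of which 408 were among the 5215. The proximal promoter share was 17% when a shared peak had to cover 50% of the Ts65Dn peak, 12% when any peak within 1 kb counted as shared, 16.2% in the stricter list and 22.4% in lists of the same length. The share near a lost SMARCA2/4 peak was 35.6%, 27.6%, 35.4% and 43.1% under the same settings, 31.2% with only euploid SMARCA2/4 peaks of q under 0.05, 21.7% at 1 kb and 59.6% at 50 kb. The number of genes called with proximal promoter peaks only was 378 in Ts65Dn against euploid, 431 between the 2 trisomic groups and 206 between Ts65Dn;Brwd1+/- (as labelled) and euploid, and with lists of the same length 556 in the first of these, in each case from fewer genes. Leaving out each replicate in turn gave 1233 to 1415, 1416 to 1593 and 550 to 671 called genes, against 1435, 1612 and 756. The median log2 fold change of -0.04 was -0.061 with RLE size factors, -0.078 without euploid replicate 3, and -0.078 to -0.030 over all replicates left out. With the replicate block, which pairs same-numbered libraries, 1496, 1667 and 831 genes were called, and 1432 in Ts65Dn against euploid from its 6 libraries alone (added after seeing the data). The block changed the number of calls by less than 1.5 times in each contrast. DESeq2 called 1410, 1594 and 769 genes and no low-count filter 1392, 1600 and 748. Of 60 named genes called in Ts65Dn against euploid, 55 were called in every setting. Plekhm3, Dlgap1, Arid1b, S100b and Myrf lost the call in at least 1, and genes not called there that gained it in at least 1 included Sema3a, Slc4a4 and Pecam1. In Ts65Dn;Brwd1+/- (as labelled) against Ts65Dn, genes that gained a call included Asic2, Sema3a and Pecam1, Asic2 with an edgeR adjusted p of 0.0393 under the replicate block, and 8 of 65 called named genes lost it in at least 1 setting (Grid1, Grin2b, Gabbr2, Gabra5, Arid1b, Slc4a4, Myrf and Calb1). No named gene changed direction past the threshold. In windows of 200 bases on either side 11 of 12 motif shares moved outside their intervals. The depth of the ATAC and ChIP libraries is not in the files, so a peak missing from a list was not called there, which differs from closed chromatin.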
